A study of Mus musculus with 9 samples.

Results

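Fatty acid binding proteins carry lipid inside cells, and they work beside the proteins that take fatty acids up, release them from lipoproteins and store them. The 10 genes described here were chosen by name from the 55385 genes of the table: the binding proteins Fabp1, Fabp3, Fabp4, Fabp5 and Fabp7, the nuclear receptor Pparg, the uptake genes Cd36 and Lpl, the droplet coat gene Plin2 and the triglyceride synthesis gene Dgat2. All 10 were among the 17108 genes tested. RNA was sequenced from the kidneys of 9 male C57BL/6J mice of 8 to 10 weeks of age, in 3 groups of 3 libraries. Control mice, by their disease state and treatment labels, received none of the agents, although the titles of all 9 libraries, Control included, read HN mice. HN mice, a model of hyperuricemic nephropathy, were given adenine at 0.16 g/kg and potassium oxonate at 2.4 g/kg on alternate days over 4 weeks. PEC mice received the same regimen together with the flavonoid pectolinarigenin, by the study's own account 25 mg/kg by mouth each day for the same 4 weeks. The labels give the agents but neither doses nor ages. HN and PEC mice thus share both agents, and no mice given pectolinarigenin alone were analysed here. The labels give kidney as the tissue, while their extraction text, which all 9 libraries share, speaks of RNA of an adipose type. Library totals ran from 57714111 to 81069646 counts. The questions were how these genes differed in HN kidneys, and how they differed once pectolinarigenin was added.

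As background, long-chain fatty acids enter cells with help from CD36 and after lipoprotein lipase has freed them from triglyceride in circulating particles. Inside the cell, binding proteins of the FABP family hold them in solution and pass them on to mitochondria, to the nucleus or to droplet synthesis. The proximal tubule burns fatty acids as its main fuel, whereas FABP4 is best known from adipocytes, endothelial cells and macrophages.

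A single library, PEC replicate 3, stood apart before any comparison. Levels are given as TMM-scaled FPKM, the deposited FPKM divided by the TMM factor of the library in the fit over all 9 libraries. Levels and the fold changes of that fit thus carry the same factors, while fits that leave out a library estimate the factors anew. Ratios of levels can differ slightly from fitted fold changes. For Fabp3, PEC without replicate 3 averaged 84.2 and Control 87.6, while the log2 fold change in the fit without that library was 0.0029. The 13 white adipocyte markers summed to 39.3, 10.3 and 14.0 in the Control libraries, 5.37, 3.28 and 59.8 in the HN libraries and 6.05, 7.66 and 547 in the PEC libraries. This library, PEC3 for short, was the highest of the 9 libraries, and HN replicate 12 and Control replicate 2 were the next. Cfd, the adipokine adipsin, was the most abundant of the 13 markers in these 3 libraries, and Lipe or Car3 was in the other 6. Adipoq, which encodes adiponectin, stood at 1.92, 0 and 0 in the Control libraries, 0.0772, 0 and 3.94 in the HN libraries and 0.0292, 0 and 59.6 in the PEC libraries. It was at or near 0 outside PEC3, HN replicate 12 and Control replicate 2. Each of the 13 markers had at least 1 count in PEC3, against 5 and 6 markers with 0 counts in PEC replicates 1 and 2. The brown adipocyte list of 6 genes summed to 30.4, 18.5 and 21.7 in the Control libraries, 7.31, 6.24 and 21.7 in the HN libraries and 12.7, 12.4 and 148 in the PEC libraries, and its uncoupling protein gene Ucp1 stood at 2.56, 0 and 0 in the Control libraries, 0, 0 and 2.83 in the HN libraries and 0.0486, 0 and 49.4 in the PEC libraries. Cox7a1 was the most abundant gene of this list in every library except PEC3, where Cidea was. In Control replicate 5 the other 5 genes had 0 counts. Cox7a1 was itself lower in HN against Control, at a log2 fold change of -1.26 (edgeR adjusted p = 0.001). These sums therefore do not measure brown adipocyte RNA alone. PEC3 was also highest for the urothelium list of 5 genes, at 7.99, 9.02 and 6.20 in the Control libraries, 2.99, 3.91 and 7.44 in the HN libraries and 3.43, 1.53 and 33.8 in the PEC libraries. Each fold change of the 10 genes that PEC3 enters is therefore given with it and without it. The part that adipose RNA plays in any value from PEC3 was not tested.

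The PEC libraries also differed from the rest as a group, since ribosomal RNA loci took 0.296%, 1.72% and 0.302% of their counts and at most 0.0042% elsewhere. The labels name no batch, so treatment and any handling shared by these 3 libraries cannot be told apart. Markers of the labelled tissue were abundant, as the 11 proximal tubule markers summed to 3234, 3459 and 3711 in the Control libraries, 789, 729 and 784 in the HN libraries and 1882, 2139.8 and 1419 in the PEC libraries, and the 8 striated muscle markers to at most 1.20 in any library.

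**Figure D1:**
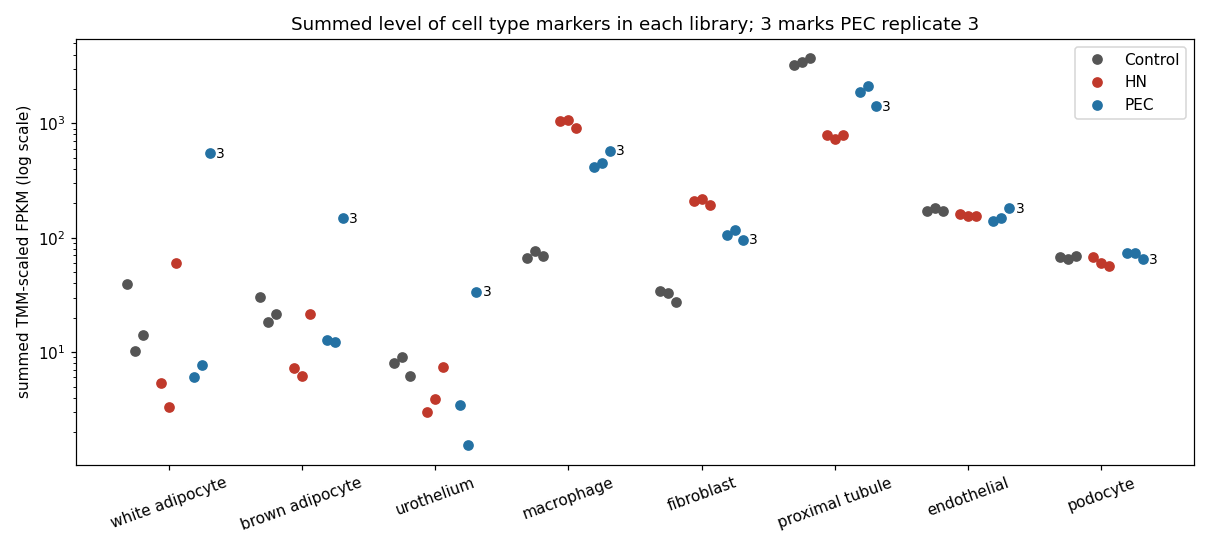
Summed TMM-scaled FPKM of 8 cell type marker lists in each library, on a log axis, with 1 point per library and the groups in different colours. PEC replicate 3, marked 3, lies above the other libraries for the white adipocyte, brown adipocyte and urothelium lists.

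In HN against Control, 4 of the 10 genes were called, Cd36, Lpl, Fabp3 and Dgat2, all of them lower, where a call is an adjusted p of at most 0.05 and a fold change of at least 1.5. Over all 17108 genes tested, 37.8% were called, 19.9% higher and 17.9% lower, so a call was common in this comparison. In PEC against HN, Fabp3 alone was called, 1 of the 10 and higher, against 32.9% of all genes, 16.0% higher and 16.9% lower. In PEC against Control, 3 of the 10 were called, Cd36, Lpl and Dgat2, all lower, against 41.2% of all genes, 21.5% higher and 19.7% lower. Without PEC3 the counts were again 1 and 3, against 32.4% and 38.2% of the genes. The median log2 fold change of the 10 was -0.84, 0.60 and -0.09 in the 3 comparisons, and 0.36 and -0.45 in the last 2 without PEC3. The 3 comparisons share libraries, so none is independent of the others. Scaling matters for direction here: total counts in place of TMM factors moved the median log2 fold change of all genes from -0.03 to 0.54 in HN against Control, from -0.01 to -0.25 in PEC against HN and from 0.02 to 0.34 in PEC against Control. The share of calls that were higher moved with it, from 52.6% to 85.5%, from 48.5% to 27.7% and from 52.3% to 75.6%. FPKM as deposited carries no TMM factor, and the limma fits on it shift the same way, with medians of all genes of 0.35, -0.19 and 0.19 with 1 added and 0.47, -0.25 and 0.26 with 0.1 added. Changes are given relative to the TMM scale.

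**Figure D2:**
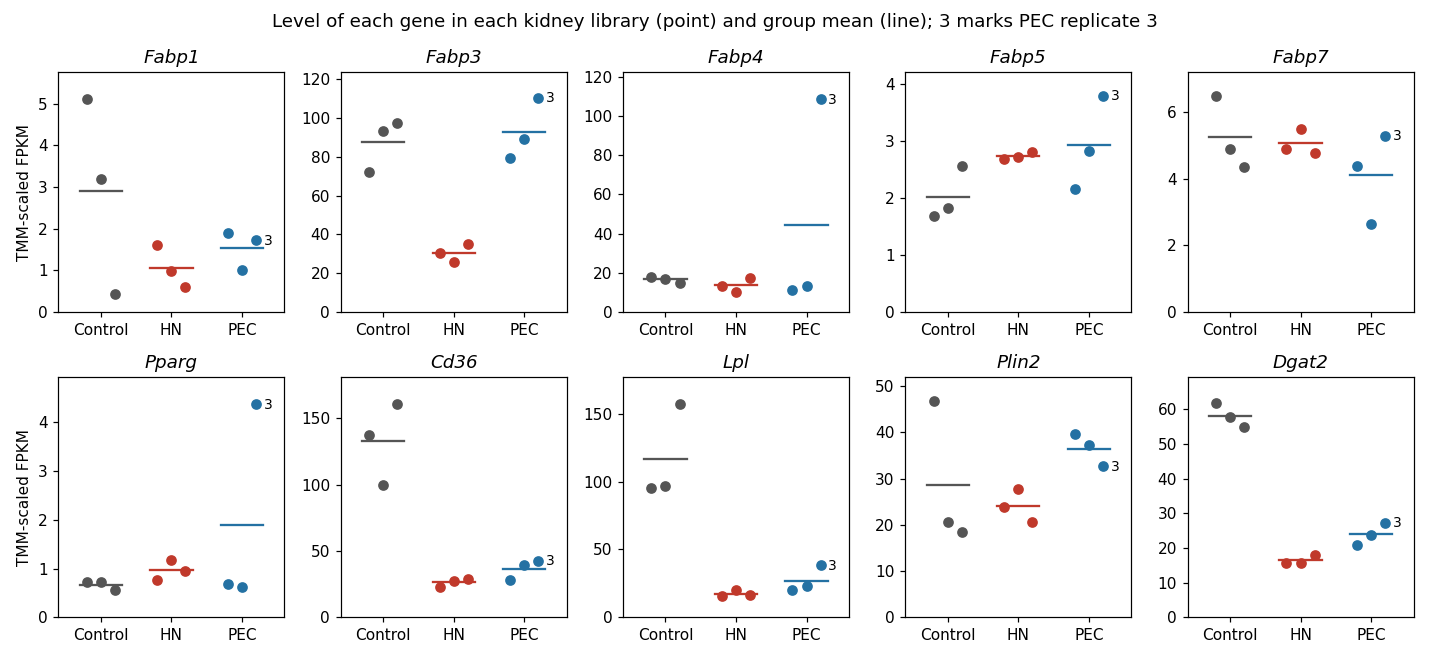
TMM-scaled FPKM of each of the 10 genes in each library, points for libraries and lines for the mean of 3, with PEC replicate 3 marked 3. Cd36, Lpl and Dgat2 are highest in Control, Fabp3 is lowest in HN, and the PEC means of Fabp4 and Pparg are set by PEC replicate 3.

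RefSeq promoters, 250 bases before to 50 after a start on GRCm38.p6, were at hand for 6 of the 10 genes, with 1 entry each for Fabp1, Fabp3, Fabp7, Cd36 and Plin2 and 3 for Pparg, 8 entries in all. Fabp4, Fabp5, Lpl and Dgat2 had no entry. Because PPAR receptors bind pairs of AGGTCA with 1 base between them, 6 forms were searched on both strands, in 32851 promoters of the same length. AGGTCA alone was in 16.3% of all promoters and in 6 of the 8 entries, those of Fabp1, Fabp7, Cd36 and Plin2 and 2 of the 3 of Pparg. The strict pair of AGGTCA with 1 base between was in 0.0396% and in none of these genes. A pair of AGGNCA with 1 base between was in 0.381%, and with A or G as its first base in 0.578%, each time with Fabp1; with A as the base between, it was in 0.0944% and in none. TATAAA was in 13.6%, with Fabp1 and 1 of the 3 entries of Pparg. The relaxed forms were chosen after the strict pair had found no member, and the pair of AGGNCA is printed because it is one that matched. A match is a description of letters. The promoters of 2 called genes, Fabp3 and Cd36, and of Fabp1 are shown, with AGGTCA and the pair of AGGNCA in capitals on either strand. Fabp3 (chr4:130308488-130308787, plus strand) has neither, Cd36 (chr5:17835847-17836146, minus strand) has AGGTCA 228 bases before the start, and in Fabp1 (chr6:71199629-71199928, plus strand) the pair begins 67 bases before it.
Fabp3: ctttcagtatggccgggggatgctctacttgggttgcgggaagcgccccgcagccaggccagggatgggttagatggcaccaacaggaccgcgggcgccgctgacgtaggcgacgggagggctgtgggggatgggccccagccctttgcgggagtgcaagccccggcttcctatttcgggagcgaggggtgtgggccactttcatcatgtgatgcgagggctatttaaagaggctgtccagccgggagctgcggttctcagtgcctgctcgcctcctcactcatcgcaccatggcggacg
Cd36: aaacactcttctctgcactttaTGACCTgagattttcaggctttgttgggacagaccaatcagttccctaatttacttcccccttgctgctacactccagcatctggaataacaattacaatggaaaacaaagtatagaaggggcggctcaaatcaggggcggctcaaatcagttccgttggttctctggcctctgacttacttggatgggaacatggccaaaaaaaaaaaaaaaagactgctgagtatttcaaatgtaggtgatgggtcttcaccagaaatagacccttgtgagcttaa
Fabp1: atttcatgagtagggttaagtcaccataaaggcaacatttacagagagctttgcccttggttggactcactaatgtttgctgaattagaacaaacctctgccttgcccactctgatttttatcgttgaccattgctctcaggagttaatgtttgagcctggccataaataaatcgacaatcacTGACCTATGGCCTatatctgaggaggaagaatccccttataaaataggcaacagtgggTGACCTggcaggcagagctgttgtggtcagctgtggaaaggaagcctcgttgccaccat

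Cd36, the gene of the membrane fatty acid translocase (ENSMUSG00000002944, chr5:17781690-17888801 on the minus strand of GRCm38), stood at 137, 99.9 and 161 in the Control libraries, 23.2, 27.2 and 28.6 in the HN libraries and 28.5, 39.2 and 42.8 in the PEC libraries. Every Control library lay above every HN and PEC library, while HN and PEC overlapped. In HN against Control the log2 fold change was -2.31 ± 0.21 (SE, n = 3 and 3), or 4.95-fold lower, with an edgeR adjusted p of 2.95e-05. In PEC against Control it was -1.81 ± 0.20 (edgeR adjusted p = 0.000116), and -1.91 ± 0.22 without PEC3 (edgeR adjusted p = 0.0003). PEC against HN gave 0.50 ± 0.20, which missed the threshold (edgeR adjusted p = 0.0642), and 0.40 without PEC3 (edgeR adjusted p = 0.152). That difference was called without PEC replicate 1, at 0.66 (edgeR adjusted p = 0.0271), and after the trend with GC content and length was removed, at 0.97 (limma adjusted p = 0.0038). Other settings moved it down, to 0.26 with total counts as scaling and to 0.22 with limma on FPKM. Over all alternatives by edgeR, DESeq2 and limma it ran from 0.22 to 0.97 (adjusted p from 0.0038 to 0.353).

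Lpl encodes lipoprotein lipase, which splits triglyceride in the capillary lumen (ENSMUSG00000015568, chr8:68880491-68906934, plus strand). Its levels were 95.5, 96.9 and 157 in the Control libraries, 15.8, 20.1 and 16.6 in the HN libraries and 19.9, 23.0 and 38.3 in the PEC libraries. Control lay above both other groups with no overlap, and PEC3 was the highest of the PEC libraries. The log2 fold change in HN against Control was -2.71 ± 0.29, or 6.53-fold lower (edgeR adjusted p = 8.56e-05). In PEC against Control it was -2.06 ± 0.28 (edgeR adjusted p = 0.000368), and -2.38 ± 0.24 without PEC3 (edgeR adjusted p = 0.00017). PEC against HN was not called at 0.65 ± 0.28 (edgeR adjusted p = 0.0819), and was 0.33 ± 0.22 without PEC3 (edgeR adjusted p = 0.249). It was called without PEC replicate 1 at 0.83 (edgeR adjusted p = 0.047), by DESeq2 at 0.63 (DESeq2 adjusted p = 0.042), and with the trend with GC content and length removed at 0.91 (limma adjusted p = 0.0208). With total counts it was 0.41 and with limma on FPKM 0.33. The range for Lpl over the edgeR, DESeq2 and limma alternatives was 0.29 to 0.91 (adjusted p from 0.0208 to 0.391).

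Markers of the proximal tubule moved in the same direction as Cd36 and Lpl in HN kidneys. Of the 11 markers, 10 were called lower in HN against Control, with a median log2 fold change of -1.92 beside -0.03 for all genes, and 9 were called higher in PEC against HN, with a median of 0.91 (10 without PEC3). The most abundant included Miox, at 808, 915 and 966 in the Control libraries, 181, 157 and 187 in the HN libraries and 797, 787 and 460.4 in the PEC libraries. Miox was not called in PEC against Control, whereas 9 of the 11 markers were called lower there, with a median of -1.02. Without PEC3 8 were, with a median of -0.89. Slc5a12 went the other way in PEC against HN, with means of 10.1 in PEC and 21.0 in HN, and was not called. Fewer cells of a type and less RNA per cell cannot be told apart in such bulk libraries, and the part of cell composition in the lower Cd36, Lpl, Fabp3 and Dgat2 of HN kidneys was not tested. The 10 endothelial markers summed to 170.4, 182 and 172 in the Control libraries, 159.9, 156 and 156 in the HN libraries and 140.4, 150.0 and 182 in the PEC libraries, and 1 of them was called lower in HN kidneys. Other markers moved as well. Of the 4 collecting duct markers, led by Aqp2, 3 were called lower in HN kidneys, with sums of 422, 463 and 233 in the Control libraries, 172, 112 and 159 in the HN libraries and 205, 205 and 264 in the PEC libraries. Of the 5 markers of thick limb and distal tubule, 3 were called lower, Slc12a1, Slc12a3 and Pvalb. Umod, the most abundant of the 5 in every library, was not called, with means of 1080 in Control and 1107 in HN. The sums, mostly of Umod, were 1388, 1525 and 1554 in the Control libraries, 1385, 1197 and 1308 in the HN libraries and 1326, 1419 and 1246 in the PEC libraries. All 6 fibroblast markers were called higher, with sums of 34.5, 32.7 and 27.5 in the Control libraries, 209, 216 and 194 in the HN libraries and 106, 116 and 96.2 in the PEC libraries. The mitochondrial share of counts was likewise lowest in HN, from 6.01% to 6.34%, with 12.9% to 16.3% in Control and 10.3% to 13.6% in PEC. It ran in the order of Fabp3, low in HN and higher in Control and PEC, and its part in the levels of the 10 genes was not tested.

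Fabp3 encodes the heart-type binding protein, which serves tissues that oxidise fatty acids (ENSMUSG00000028773, chr4:130308595-130315463, plus strand). It stood at 72.3, 93.4 and 97.2 in the Control libraries, 30.2, 25.6 and 35.2 in the HN libraries and 79.2, 89.3 and 110.2 in the PEC libraries. Every HN library lay below every Control and every PEC library, and Control and PEC overlapped. The log2 fold change was -1.50 ± 0.17 in HN against Control (edgeR adjusted p = 0.000125) and 1.63 ± 0.17 in PEC against HN (edgeR adjusted p = 0.000156). Without PEC3 the latter was 1.51 ± 0.16, or 2.85-fold higher (edgeR adjusted p = 0.000337). Thus the call of Fabp3 in PEC against HN did not rest on PEC3. The call was also made without the library of each group richest in adipocyte markers, at 1.63 (edgeR adjusted p = 0.00172). PEC and Control means were 92.9 ± 15.8 and 87.6 ± 13.4 (SD, n = 3 each), and PEC against Control gave 0.13 with PEC3 and 0.0029 without it (edgeR adjusted p = 0.548 and 0.99); the sign turned to -0.32 with the GC and length trend removed. A pseudogene, Fabp3-ps1, matched the Fabp3 transcript at 99.3% identity over 402 of 823 bases, so reads may be split between them. Its counts never exceeded 2.56% of both genes' counts in a library.

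Fabp4, the adipocyte binding protein, is also made by endothelial cells and macrophages (ENSMUSG00000062515, chr3:10204088-10208576, minus strand). Its deposited counts were 5478, 5266 and 4504 in the Control libraries, 5715, 5106 and 8104 in the HN libraries and 4438, 4345 and 32756 in the PEC libraries, and its TMM-scaled FPKM was 18.0, 17.0 and 15.1 in the Control libraries, 13.3, 10.4 and 17.6 in the HN libraries and 11.4, 13.2 and 108 in the PEC libraries. PEC3 held 8.81 times the mean of PEC replicates 1 and 2, while the other 8 libraries lay between 10.4 and 18.0. PEC against HN gave a log2 fold change of 1.71 ± 0.77 with PEC3 (edgeR adjusted p = 0.0991) and -0.12 ± 0.20 without it (edgeR adjusted p = 0.648), so the direction turned with that library. It was called when PEC replicate 1 or 2 was left out instead, at 2.17 and 2.16 (edgeR adjusted p = 0.0363 and 0.0426). PEC against Control likewise went from 1.46 ± 0.77 to -0.38 ± 0.20 without PEC3 (edgeR adjusted p = 0.137 and 0.155), and was called without PEC replicate 1, at 1.92 (edgeR adjusted p = 0.0459). HN against Control gave -0.25 ± 0.75 with PEC3 in the fit and -0.26 ± 0.18 without it, the same HN and Control libraries with a smaller SE (edgeR adjusted p = 0.809 and 0.267). It was -0.42 without the library of each group richest in adipocyte markers (edgeR adjusted p = 0.0753), and turned to 0.31 with total counts as scaling. In HN replicate 12, the HN library with the most adipocyte markers, Fabp4 was at 17.6, the highest of the HN libraries. PEC against HN was 0.092 without the library of each group richest in adipocyte markers, and over the edgeR and limma alternatives it spanned -0.12 to 2.17 (adjusted p from 0.0363 to 0.663), with -0.38 to 1.92 (adjusted p from 0.0459 to 0.474) for PEC against Control.

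Most macrophage markers, of a cell type that can express Fabp4, rose in HN kidneys while Fabp4 was not called. The 11 markers summed to 67.0, 76.0 and 68.7 in the Control libraries, 1049, 1072 and 906 in the HN libraries and 417, 449.7 and 577 in the PEC libraries. In HN against Control 10 of them were called higher, and in PEC against HN 8 were called lower (8 without PEC3). Lyz2 was the most abundant of them in every HN and PEC library. None of the 11 was at 0 in any library. Their part in the level of Fabp4 was not tested.

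Fabp5 encodes the epidermal-type binding protein (ENSMUSG00000027533, chr3:10012548-10016607, plus strand) and was expressed at a low level, 1.69, 1.83 and 2.55 in the Control libraries, 2.68, 2.71 and 2.82 in the HN libraries and 2.17, 2.82 and 3.80 in the PEC libraries. The HN libraries lay above the Control libraries, and PEC overlapped both groups. The log2 fold change was 0.46 ± 0.22 in HN against Control (edgeR adjusted p = 0.123), 0.12 in PEC against HN (edgeR adjusted p = 0.696) and 0.57 in PEC against Control (edgeR adjusted p = 0.0574). Without PEC3 the PEC values were -0.10 and 0.36 (edgeR adjusted p = 0.716 and 0.169). Without Control replicate 5, HN against Control was called at 0.65 and PEC against Control at 0.77 (edgeR adjusted p = 0.0463 and 0.024). PEC against Control was also called without PEC replicate 1, at 0.75 (edgeR adjusted p = 0.0205), and under total counts HN against Control was called at 1.03 and PEC against Control at 0.91, while PEC against HN turned to -0.13. Limma on FPKM, which shares the shift of total counts and so is no separate support, called Fabp5 in HN against Control, at 0.71 with 1 added and 0.98 with 0.1 added (limma adjusted p = 0.0033 and 0.00291), and with 0.1 added in PEC against Control, at 0.81 (limma adjusted p = 0.00867). Pseudogenes matched its transcript at 93.6% to 98.3% identity, each with at most 1.93% of the shared counts in a library. Over the edgeR, DESeq2 and limma alternatives HN against Control spanned 0.32 to 1.03 (adjusted p from 0.00291 to 0.304) and PEC against Control 0.24 to 0.91 (adjusted p from 0.00683 to 0.42).

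Fabp1, the liver-type binding protein, was low, with counts of 192, 122 and 16 in the Control libraries, 86, 60 and 34 in the HN libraries and 92, 41 and 65 in the PEC libraries (ENSMUSG00000054422, chr6:71199827-71205023, plus strand). Control spanned both extremes, from 16 counts in replicate 5 to 192 in replicate 2, and the groups overlapped. None of the comparisons was called: log2 fold changes were -1.43 ± 0.75, 0.57 ± 0.74 and -0.86 ± 0.74 for HN against Control, for PEC against HN and for PEC against Control (edgeR adjusted p = 0.146, 0.558 and 0.351), the last 2 being 0.50 and -0.93 without PEC3. Without Control replicate 5 it was called lower in HN against Control at -1.94 and in PEC against Control at -1.37 (edgeR adjusted p = 0.0123 and 0.044). Without Control replicate 2 the values were -0.75 and -0.18 (edgeR adjusted p = 0.469 and 0.865). HN against Control was -0.69 with the GC and length trend removed and -0.46 without the library of each group richest in adipocyte markers. Over the edgeR, DESeq2 and limma alternatives it spanned -1.94 to -0.40 (adjusted p from 0.0123 to 0.718), and PEC against Control -1.37 to -0.089 (adjusted p from 0.044 to 0.927).

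Fabp7, the brain-type binding protein, stood at 6.47, 4.90 and 4.35 in the Control libraries, 4.90, 5.50 and 4.78 in the HN libraries and 4.37, 2.63 and 5.28 in the PEC libraries (ENSMUSG00000019874, chr10:57784881-57788450, plus strand). Its groups overlapped, and PEC replicate 2 was the lowest library. Log2 fold changes were -0.03 ± 0.26, -0.28 ± 0.27 and -0.31 ± 0.27 in the same order of comparisons, none called (edgeR adjusted p = 0.943, 0.408 and 0.349), and -0.49 and -0.52 for the last 2 without PEC3. With total counts as scaling, HN against Control turned to 0.54 and PEC against Control to 0.02.

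Dgat2 encodes a diacylglycerol acyltransferase that makes triglyceride in the last step of its synthesis (ENSMUSG00000030747, chr7:99153658-99182719, minus strand). Its levels were 61.8, 57.8 and 54.8 in the Control libraries, 15.8, 15.6 and 18.1 in the HN libraries and 21.0, 23.8 and 27.3 in the PEC libraries. The 3 groups did not overlap, with Control highest, PEC between and HN lowest, at means of 58.1 ± 3.54, 24.0 ± 3.17 and 16.5 ± 1.39 (SD, n = 3 each). Dgat2 was 3.47-fold lower in HN than in Control, a log2 fold change of -1.79 ± 0.12 (edgeR adjusted p = 6.39e-06), and -1.23 ± 0.11 in PEC against Control (edgeR adjusted p = 4.54e-05; -1.32 without PEC3). In PEC against HN it was 0.56 ± 0.11, or 1.48-fold higher (edgeR adjusted p = 0.00381), and 0.48 ± 0.10 without PEC3 (edgeR adjusted p = 0.00701). The adjusted p passed the threshold and the fold change did not reach 1.5, so it was not called. Without HN replicate 12 or PEC replicate 1 it was called, at 0.63 and 0.65 (edgeR adjusted p = 0.00579 and 0.00332). The adjusted p did not pass in other settings, where the log2 fold change was 0.25 with the GC and length trend removed (limma adjusted p = 0.0651), 0.32 with total counts (edgeR adjusted p = 0.0652) and 0.28 on FPKM (limma adjusted p = 0.0714). All edgeR, DESeq2 and limma alternatives together spanned 0.25 to 0.65 (adjusted p from 9.43e-05 to 0.0716).

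Plin2, which encodes the coat protein of lipid droplets found in most cells, stood at 46.7, 20.7 and 18.5 in the Control libraries, 23.8, 27.7 and 20.5 in the HN libraries and 39.5, 37.2 and 32.7 in the PEC libraries (ENSMUSG00000028494, chr4:86648386-86670060, minus strand). Control replicate 2, the Control library with the most adipocyte markers, was also far above the other Control libraries for Plin2. All PEC libraries lay above all HN libraries, and PEC3, the PEC library with the most such markers, was the lowest of the 3 for Plin2. The part of adipose RNA in these levels was not tested. PEC against HN gave 0.62 ± 0.32 (edgeR adjusted p = 0.136), and 0.72 ± 0.36 without PEC3 (edgeR adjusted p = 0.144), neither called. HN against Control was -0.23 ± 0.32 and PEC against Control 0.39 ± 0.32 (edgeR adjusted p = 0.578 and 0.32; 0.48 without PEC3 for the latter). Without Control replicate 2, Plin2 was called in PEC against HN at 0.62 and in PEC against Control at 0.94 (edgeR adjusted p = 0.0056 and 0.00143), while HN against Control turned to 0.31, as it did under total counts at 0.33. It was also called in PEC against HN with only the groups compared, at 0.63, and without the library of each group richest in adipocyte markers, at 0.61 (edgeR adjusted p = 0.00988 and 0.0152), as was PEC against Control in the latter fit, at 1.03 (edgeR adjusted p = 0.00245). The edgeR, DESeq2 and limma alternatives for Plin2 spanned 0.29 to 0.73 (adjusted p from 0.0056 to 0.483) in PEC against HN and 0.15 to 1.03 (adjusted p from 0.00143 to 0.704) in PEC against Control.

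Pparg encodes the nuclear receptor that directs adipocyte differentiation and fatty acid storage (ENSMUSG00000000440, chr6:115360951-115490399, plus strand). It was low except in PEC3, at 0.717, 0.717 and 0.552 in the Control libraries, 0.763, 1.18 and 0.947 in the HN libraries and 0.681, 0.626 and 4.37 in the PEC libraries. PEC3 held 6.69 times the mean of PEC replicates 1 and 2, and the HN libraries lay above the Control libraries. PEC against HN was 1.00 ± 0.68 with PEC3 and -0.51 ± 0.27 without it (edgeR adjusted p = 0.256 and 0.159), so here too the direction turned. PEC against Control was 1.55 ± 0.69 and, without PEC3, 0.04 ± 0.27 (edgeR adjusted p = 0.0869 and 0.915). It was called without PEC replicate 1 or 2, at 1.96 and 1.98 (edgeR adjusted p = 0.0377 and 0.0303), with total counts as scaling, at 1.88 (edgeR adjusted p = 0.0459), and by DESeq2, at 1.55 (DESeq2 adjusted p = 0.0278). HN against Control gave 0.55 ± 0.68 (edgeR adjusted p = 0.538), and 0.55 ± 0.24 without PEC3 (edgeR adjusted p = 0.0878), the same HN and Control libraries with a smaller SE. Over the edgeR, DESeq2 and limma alternatives PEC against Control spanned 0.039 to 1.98 (adjusted p from 0.0278 to 0.915).

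**Figure D3:**
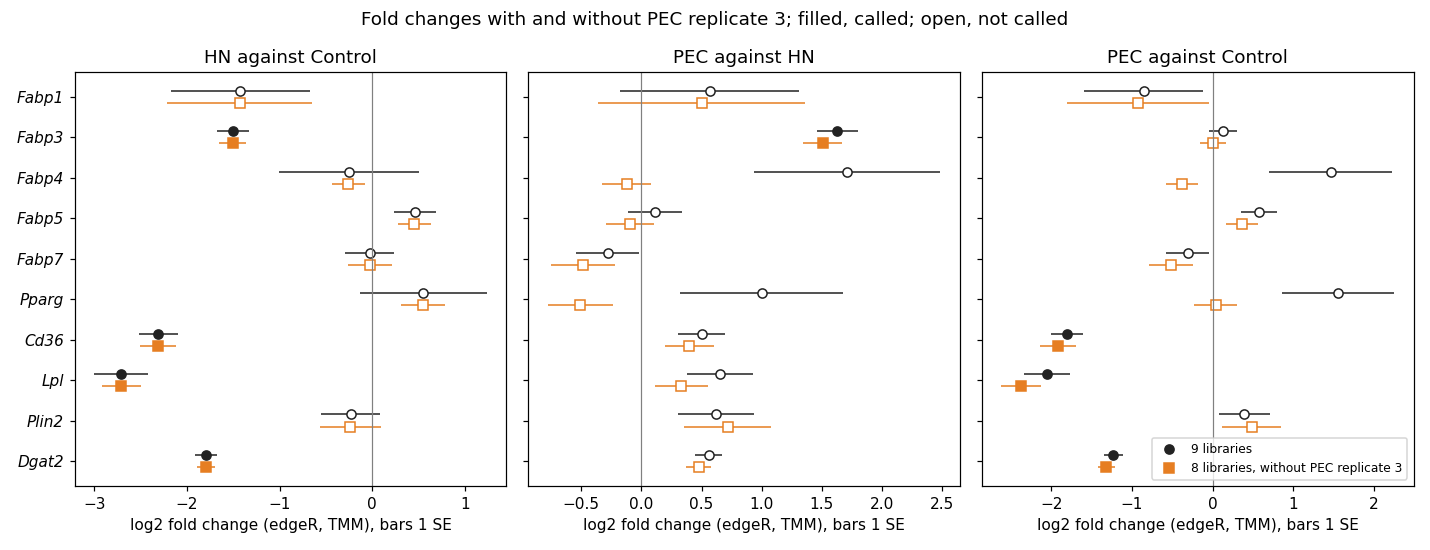
Log2 fold change of each gene in the 3 comparisons from edgeR with TMM scaling, with bars of 1 SE, over 9 libraries (circles) and over 8 without PEC replicate 3 (squares); filled symbols were called. When that library is left out, Fabp4, Fabp5 and Pparg cross 0 in PEC against HN and Fabp4 crosses it in PEC against Control, while Fabp3 stays called in PEC against HN.

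Around these 10 genes, 66 other genes of lipid handling in 5 lists were examined, of which 63 were tested. In HN against Control 11 were called higher and 25 lower, with a median log2 fold change of -0.48, so that 57.1% were called against 37.8% of all genes. In PEC against HN 15 were called higher and 9 lower with PEC3, and 11 and 7 without it, with medians of 0.13 and 0.08 beside -0.01 for all genes. That is 38.1% against 32.9% of all genes with PEC3, and 28.6% against 32.4% without it, near the share of all genes, and nothing particular to these genes is read from it. Counts for the single lists, of 9 to 17 tested genes, stand beside 19.9% higher and 17.9% lower of all genes in HN against Control, and 16.0% and 16.9% in PEC against HN. Of the 17 droplet genes, 8 were called lower and 1 higher in HN kidneys. The latter was Hilpda, at a log2 fold change of 0.93, named after its value was seen. Among those lower were Fitm1, which helps droplets form, at -2.96, the monoacylglycerol lipase gene Mgll, at -2.75, and Cideb, at 117, 129 and 127 in the Control libraries, 35.8, 42.2 and 40.1 in the HN libraries and 88.6, 109.5 and 79.2 in the PEC libraries. In PEC against HN 7 were called higher with PEC3 and 5 without it. Mgll, at -1.16 with PEC3, was called lower without it, at -1.96 (edgeR adjusted p = 0.15 and 0.0256). Conversely, Plin4 fell from 2.96 to 0.62 and Plin5 from 1.44 to 1.00 without it, and both lost the call (edgeR adjusted p = 0.159 and 0.123). Cideb kept it, at 1.25 and 1.37. Plin1, Plin4, Cidea, Cidec and Lipe of this list are also in an adipocyte list.

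Of 15 triglyceride synthesis genes other than Dgat2, 8 were called lower and 1 higher in HN kidneys, and 5 were called higher in PEC against HN (3 without PEC3). The monoacylglycerol acyltransferase gene Mogat1 stood at 92.9, 66.0 and 77.7 in the Control libraries, 12.9, 17.2 and 14.6 in the HN libraries and 38.1, 51.4 and 33.9 in the PEC libraries. Control, PEC and HN did not overlap, in the order seen for Dgat2. Of 12 transport and activation genes, 11 were tested, and 5 were called higher and 2 lower in HN kidneys (4 and 2 without PEC3 in the fit), and 2 higher and 1 lower in PEC against HN, with or without PEC3. Slc27a6, of the same transporter family as Slc27a2, had the largest log2 fold change of the list, 3.26, from levels near 0, 0.121, 0 and 0.0257 in the Control libraries, 0.437, 0.477 and 0.445 in the HN libraries and 0.165, 0.0597 and 0.0584 in the PEC libraries. Slc27a2, an acyl-CoA synthetase and transporter, was at 1029, 1015 and 1008 in the Control libraries, 256, 251 and 262 in the HN libraries and 582, 708 and 513 in the PEC libraries, with log2 fold changes of -1.96 and 1.25, and 1.37 for the latter without PEC3. Of 10 genes of lipoprotein lipolysis and uptake, 9 were tested, 3 were called higher and 2 lower in HN kidneys, and 1 higher and 2 lower in PEC against HN (1 and 1 without PEC3). Apoc2, which encodes an activator of lipoprotein lipase, had no counts in Control. The lipoprotein receptor gene Lrp1 was higher at 1.86. Angptl4, which inhibits lipoprotein lipase, was lower in HN kidneys at -1.12 (edgeR adjusted p = 0.0115). Of the 12 nuclear receptors and cofactors, 11 were tested, and 5 were called lower and 1 higher in HN kidneys (5 and 2 without PEC3 in the fit). With PEC3 6 were called lower in PEC against HN, and 4 without it. The transcription factor genes called higher in HN were Cebpd, at 2.73, and, only without PEC3 in the fit, Cebpb, at 0.93 (edgeR adjusted p = 0.0415). Ppara, the receptor that governs fatty acid oxidation, stood at 15.9, 18.6 and 18.9 in the Control libraries, 9.51, 5.75 and 4.81 in the HN libraries and 1.69, 2.45 and 1.56 in the PEC libraries, lowest in PEC.

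**Figure D4:**
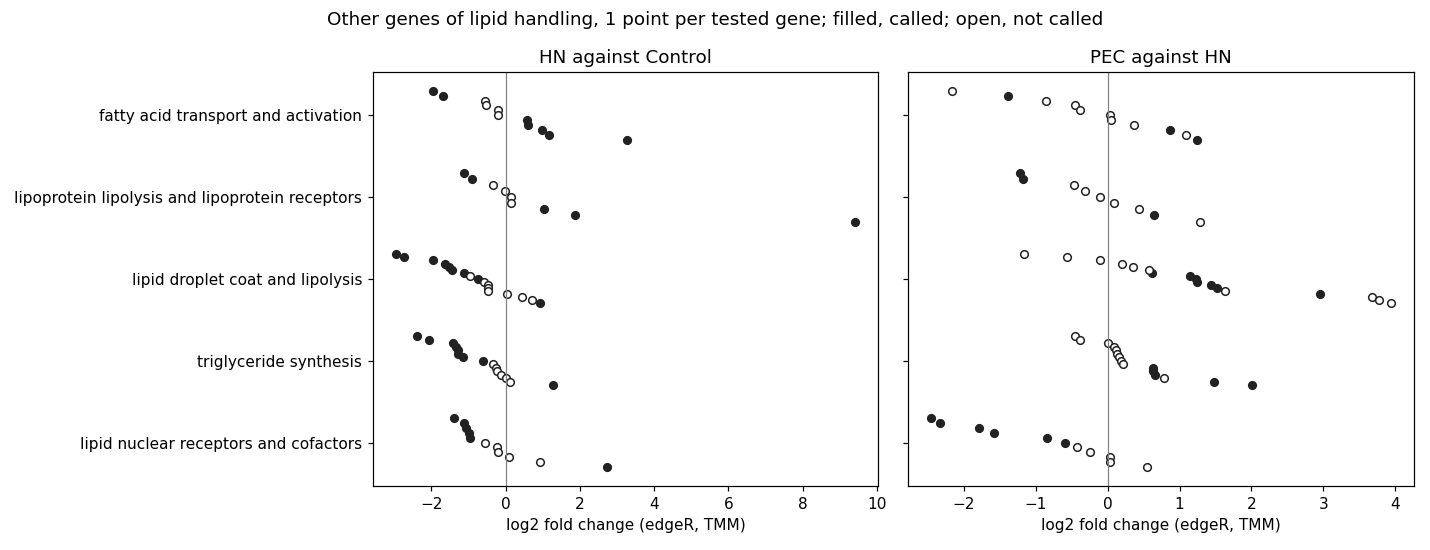
Log2 fold change of 63 tested genes in 5 lists of lipid handling, 1 point per gene, in HN against Control and in PEC against HN; filled points were called. The rightmost point in HN against Control is Apoc2, which has no counts in any Control library, so that its fitted value depends on the prior count.

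Genes with the pattern closest to each of these over the 9 libraries were found by the root mean square difference of mean-centred log2 CPM, given in log2 units. For Fabp3 they were Hsd3b4, Ndrg2 and Gm29216 (0.10, 0.16 and 0.17), for Cd36 Ggct, Cyp51 and Csad (0.23, 0.23 and 0.24), for Lpl Cyp7b1, Acadm and Itih2 (0.29, 0.31 and 0.32) and for Dgat2 Entpd5, Acot4 and Pik3c2g (0.12, 0.14 and 0.17). Fabp4 was closest to Slc1a3, Amy1 and 5330438D12Rik (0.21, 0.35 and 0.41) and Pparg to Ppp1r3c, Actg2 and Igtp (0.28, 0.32 and 0.33), and over the 8 libraries without PEC3 to Abi1, Ccny and Wdr26 (0.11, 0.12 and 0.14) and to Zfp472, Kif5c and Dhrs7 (0.11, 0.12 and 0.12). Over those 8 libraries the root mean square of the gene itself was 0.27 for Fabp4 and 0.32 for Pparg. Over all 9 it was 1.01 for Cd36 and 1.19 for Lpl. A gene that varies little has small differences to many genes, so the differences are not comparable between genes. None of the 3 genes closest to Fabp4, to Pparg or to Cd36 recurred once PEC3 was left out. The closest gene also differed for Lpl, Fabp5 and Fabp7, and was the same for Fabp1, Fabp3, Plin2 and Dgat2. The first genes for Fabp1, Fabp5, Fabp7 and Plin2 differed by 0.53, 0.15, 0.14 and 0.16.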

How the data were processed

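RNA from 9 mouse kidneys, in 3 groups of 3, was sequenced after poly(A) selection. The authors deposited raw counts and FPKM (fragments per kilobase, scaled to library size) for 55385 genes, with gene coordinates of GRCm38, although the labels name mm8 and mm9 with Bowtie 0.12.2. Counts were fitted with edgeR 4.0.16 (R 4.3.3), TMM scaling and quasi-likelihood F tests over all 9 libraries, for 17108 genes with a mean of at least 0.5 CPM, and p-values were adjusted by the Benjamini-Hochberg method over all of them. A gene was called at an adjusted p of at most 0.05 and a fold change of at least 1.5. SE is the absolute log2 fold change divided by the square root of F. Alternatives included DESeq2 1.42.0, limma 3.58.1 on FPKM, other scalings and filters, removal of the GC and length trend, and leaving out each library. Chosen after seeing the data were the fit without the libraries richest in adipocyte RNA, limma on log2 CPM and the relaxed motif forms. Copies were sought with blastn 2.17.0 at 85% identity and 40% coverage, the coverage minimum having been lowered after a first search, run with an empty query, returned nothing. The members and lists were chosen with earlier results of these data known. A further list of related genes, fixed beforehand, was dropped after the data were seen, and the list totals leave it out. Genes whose fold changes are given from the lists come, apart from Hilpda, from the up to 4 called genes with the largest absolute log2 fold change in HN against Control or in PEC against HN, and which of these to name was chosen after their values were seen. Other list genes are named as defining or most abundant markers, because 2 lists share them, or to show which markers of a list were or were not called. These too were named after their values were seen. An exact permutation test of 3 against 3 libraries cannot go below a p of 0.10. The tests were checked on simulated data with few changed genes, balanced in direction, and the same spread for every gene. Such data cannot show how the tests behave under the scaling shifts or the outlying library seen here.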

Additional observations from a re-analysis of the deposited data

How the results depend on the processing

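All 8 calls of the 10 genes held in each of 20 alternatives per gene, with log2 fold changes in HN against Control of Fabp3 -1.75 to -0.93, Cd36 -2.48 to -1.71, Lpl -2.83 to -2.08 and Dgat2 -1.86 to -1.21, in PEC against HN of Fabp3 1.06 to 1.75, and in PEC against Control of Cd36 -1.98 to -1.28, Lpl -2.50 to -1.72 and Dgat2 -1.60 to -0.91. Of 597 alternative log2 fold changes over the 10 genes and 3 comparisons, 536 kept direction and side of the threshold, 29 became calls and 32 changed sign, the last only where the gene was not called. DESeq2 gave no adjusted p for Fabp4 in 3 comparisons. Sign changes in HN against Control came with total counts for Fabp4 (0.31), Fabp7 (0.54) and Plin2 (0.33), and with limma on FPKM plus 1 and plus 0.1 for Fabp4 (0.24, 0.26), Fabp7 (0.44, 0.52) and Plin2 (0.41, 0.43). Both of these scalings move the median of all genes in the same direction. Fabp7 also turned with no filter (0.0088), with only the groups compared (0.017), with the GC and length trend removed (0.20) and in leaving out single libraries (-0.15 to 0.15), and Plin2 in leaving out single libraries (-0.47 to 0.31). In PEC against HN, Fabp5 turned with total counts (-0.13), with FPKM plus 1 and plus 0.1 (-0.13, -0.17) and with the GC and length trend removed (-0.028), and leaving out single libraries gave -0.10 to 0.29 for Fabp5, -0.12 to 2.17 for Fabp4 and -0.51 to 1.42 for Pparg. In PEC against Control, Fabp3 turned with the GC and length trend removed (-0.32), Fabp7 with total counts (0.018), and Fabp4 ran from -0.38 to 1.92 without single libraries. Leaving out the library with the most adipocyte RNA in each group, an alternative chosen after seeing the data, turned Fabp7 (0.19) and Plin2 (0.41) in HN against Control, Fabp5 (-0.079) and Pparg (-0.52) in PEC against HN, and Fabp3 (-0.12) and Fabp4 (-0.33) in PEC against Control. In PEC against HN, where 1 of these genes was called, 2 were called with only the groups compared, by DESeq2, without those 3 libraries, at an unadjusted p and with no minimum fold, 3 with the GC and length trend removed, and 1 to 5 without single libraries. In PEC against Control 5 were called with total counts and 3 to 6 without single libraries, and in HN against Control 4 to 6 without single libraries. The cause of these shifts was not tested. No paired analysis was possible, because the libraries come from different mice, by the study's own account assigned to groups at random. A replicate number shared by 2 groups marks no pair. Fabp1 had 16 to 192 counts in a library, and the part of depth in its spread was not tested.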
